A study of Mus musculus with 66 samples.

Results

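Widely spaced 3'UTR site pairs are genes whose transcripts end at either of 2 poly(A) sites that lie at least 2000 bases apart and that the deposited table assigns to the 3'-most exon. Where both sites lie in 1 annotated exon, as in 571 of the pairs, use of the proximal site removes a long stretch of that exon. In 531 of these the stop codon lay in the same exon before the proximal site, so the stretch is 3'UTR. Non-coding genes were not excluded, and Xist is among the pairs. For each gene, the 2 sites with the most 3'READS reads over all libraries were taken where each held at least 5% of the reads of the gene and both together averaged 20 or more reads in a library. This gave 902 pairs of the 4567 site pairs tested, among 59578 poly(A) sites of 15856 genes. The rule used the spacing and read totals over all libraries, the knockdowns included, so it also took sites that were hardly read in siCtrl. The cells were C2C12 cells, an established line of mouse myoblasts, transfected for 48 h with 50 nM siRNA. Libraries were made from cells with a control siRNA (siCtrl, titled siNS in the labels), with siPaf1, with siCdc73 and with siSki8, which targets the gene listed as Wdr61. Each assay had 7 libraries: siCtrl, siPaf1 and siCdc73 in batch 1 and in batch 2, and siSki8 in batch 2 only. With no second siSki8 library, its tests borrow the spread seen in siCtrl, siPaf1 and siCdc73. The batches are those of the labels. Each knockdown came from transfection of a pool of cells, so incomplete loss in every cell and full loss in some cells cannot be told apart.

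Most mammalian genes carry several poly(A) sites, and the choice between them in a 3'UTR leaves the protein unchanged but sets which regulatory sequences the mRNA keeps. A poly(A) site is marked by a hexamer, most often AATAAA or ATTAAA, a short distance before the cleavage position, and the last site of a 3'UTR tends to have the stronger signal. Long 3'UTRs hold binding sites for miRNAs and RNA-binding proteins. The Paf1 complex travels with RNA polymerase II and takes part in elongation, histone modification and 3' end formation. Paf1, Cdc73 and Ski8 are subunits of it. In bulk samples, fewer cells using a site and less use per cell cannot be told apart.

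The 30 bases that end at each site are shown for 9 members whose site use is described in detail, from the mm9 genome and in transcript sense, with the poly(A) signal in capitals. They show which signals compete in a pair.
Hipk3 proximal, chr2:104269935-104269964, minus strand: attaaaAATAAAaacatggtatttaataaa
Hipk3 distal, chr2:104266638-104266667, minus strand: tttgaATTAAAatatatatattgcggcaaa
Gmps proximal, chr3:63820646-63820675, plus strand: agtgggagtAATAAAtgctttgttgaggaa
Gmps distal, chr3:63826109-63826138, plus strand: cttcacagtATTAAAaaataccgtgtttaa
Trp53inp1 proximal, chr4:11097632-11097661, plus strand: ttttgaAAGAAAacttgacatatttctgta
Trp53inp1 distal, chr4:11101497-11101526, plus strand: tgtcagtaAATAAAatgtcctttaacttaa
Ankrd57 proximal, chr10:58686409-58686438, plus strand: agaaaaaaccaAATAAAttatgcattttaa
Ankrd57 distal, chr10:58689153-58689182, plus strand: ggaAATAAAatgtccatcgtagagatcaaa
Loxl2 proximal, chr14:70093478-70093507, plus strand: aaaacttgaatatcaagacctctgtattaa
Loxl2 distal, chr14:70095612-70095641, plus strand: ttttaAATAAAcgtttaactctctgcttta
Reep3 proximal, chr10:66476430-66476459, minus strand: cccaagatgAATAAAccgctaacagatcaa
Reep3 distal, chr10:66471937-66471966, minus strand: cAATAAAgtaaactcattttattagtggca
Tgfb1i1 proximal, chr7:135397197-135397226, plus strand: tacaaaCATAAAaacacactccacacttta
Tgfb1i1 distal, chr7:135401979-135402008, plus strand: tatctatAATAAActttctcctccaccata
Tmem160 proximal, chr7:17040810-17040839, plus strand: actgggacATTAAAacctgacccttccgca
Tmem160 distal, chr7:17049047-17049076, plus strand: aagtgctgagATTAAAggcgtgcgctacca
St13 proximal, chr15:81195474-81195503, minus strand: AATAAAacacattaagttgattgagttgga
St13 distal, chr15:81192420-81192449, minus strand: gtaaactgAATAAAacccttttctccccaa
Trp53inp1 and Tgfb1i1 pair a variant hexamer at the proximal site with AATAAA at the distal site, and in Ankrd57, Reep3 and St13 both sites have AATAAA. Hipk3 and Gmps show the reverse order, with AATAAA first and ATTAAA last. No searched hexamer lies in the 40 bases before the Loxl2 proximal site.

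The 3'READS libraries held 5302728 to 14340927 PASS reads, which are reads with non-genomic Ts that mark the poly(A) tail, and the wide pairs took 2.49% to 3.45% of them. The median wide pair had 45.0 reads in the shallowest library, siCdc73 in batch 1, and 190.5 in the deepest for these pairs, siPaf1 in batch 2. Wide pairs ranged from 20.0 to 9714 mean reads per library, and 11 of them had no read in at least 1 library. In RNA-seq the targeted gene stood at 19.0% and 19.5% of its siCtrl level of the same batch in siPaf1, at 13.0% and 22.4% in siCdc73 and at 4.54% in siSki8. Of the myoblast markers listed by RNA-seq, 4 of 5 were found, and their summed RPKM lay between 4560 and 8829 in all libraries, most of it from Vim (4303 to 8248). Cdh15, a cadherin of myoblasts, was at 134.9 and 164.2 RPKM in siCtrl, 61.3 and 102.0 in siPaf1, 51.0 and 58.2 in siCdc73 and 128.9 in siSki8, so both knockdowns with 2 libraries lay below the controls. Other myoblast markers went other ways. Des was at 198.7 and 385.7 RPKM in siCtrl, 390.0 and 538.1 in siPaf1, 167.6 and 267.7 in siCdc73 and 493.9 in siSki8. Myf5 was at 28.2 and 31.4 in siCtrl, 28.2 and 23.5 in siPaf1, 38.2 and 48.4 in siCdc73 and 16.6 in siSki8. The 3 of 7 myotube markers found summed to 11.3 to 127.5 RPKM, with the higher values in batch 2, and the 3 of 7 osteoblast and adipocyte markers found summed to 3.32 to 30.2 RPKM. Of the latter, Pparg was at 11.8 and 18.2 RPKM in siCtrl, 3.89 and 3.19 in siPaf1, 9.29 and 11.1 in siCdc73 and 30.02 in siSki8, and the part of such cell state differences in site choice was not tested. The siPaf1 library of batch 2 stood apart: 97 genes lay at least 20-fold above their level in every other 3'READS library, against 0 genes in each of the other libraries. None of the 97 (0) is a wide pair gene, and the counts of calls are also given without that library.

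The spacing of the wide pairs had a median of 2979 bases, with quartiles of 2387 and 3962. The widest pair, that of the histone methyltransferase gene Nsd1, spanned 104260 bases, and 16 pairs spanned over 10000. Just inside the limit of 2000 bases lay Sytl5 at 2000, Prkci at 2002 and Coro2a at 2003, and just outside lay Cldn1 at 1997 and St6galnac4 and Gmeb1 at 1996. In the GENCODE annotation of the same build, both sites of 571 pairs (63.3%) lay in 1 annotated exon of the gene, against 84.9% of the pairs under 2000 bases. In 283 pairs (31.4%, against 11.9%) the proximal site lay in an exon of the gene and the distal site outside its annotated exons, and in 269 of these it lay past the annotated end of the gene. The remaining 48 pairs (5.32%) had other placements, and 4 of the 5 widest pairs were of this kind. Where the stop codon lay in the same exon (531 pairs), the proximal site followed it by a median of 443 bases and the distal site by 3496. A protein-coding gene of the same strand started between the sites in 3 pairs, and 3 distal sites lay within 2000 bases upstream of an opposite gene, in antisense. In 10 pairs a site is also listed under another gene, as for Sco2 and Tymp, which share both sites and count as 2 pairs.

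The distal sites of wide pairs had the canonical signal more often than the proximal sites. Within 40 bases before cleavage, AATAAA was found at 70.0% of the 902 distal sites and at 41.2% of the proximal sites. In the pairs under 2000 bases the shares were 58.1% and 45.4%. No searched hexamer was found at 4.77% of the distal and 14.3% of the proximal sites. In pairs with both sites in 1 exon the contrast was 73.9% against 37.8%, and with the distal site outside the annotated exons it was 62.9% against 48.4%. The signal started a median of 23.0 bases before cleavage at both kinds of site.

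In control cells the distal, long isoform was the major one in most wide pairs. The distal site held a median of 55.0% of the reads of the pair in siCtrl of batch 1 and 61.0% in batch 2. The medians were 50.0% and 53.2% in siPaf1, 44.2% and 50.0% in siCdc73 and 48.0% in siSki8. Within each batch, every knockdown library had a lower median than its control. The pairs with the distal site above 50% numbered 480 and 522 in siCtrl, 443 and 474 in siPaf1, 396 and 446 in siCdc73 and 426 in siSki8. Pairs from 500 to under 2000 bases apart had medians of 57.9% and 61.8% in siCtrl, 55.6% and 53.0% in siPaf1, 50.0% and 50.7% in siCdc73 and 51.0% in siSki8, so that in batch 2 their fall in siPaf1 and siCdc73 was at least as large as that of the wide pairs. Pairs under 500 bases apart went from 56.9% and 60.0% in siCtrl to 53.8% and 54.1% in siPaf1, 52.3% and 54.9% in siCdc73 and 57.0% in siSki8. When the reads of all wide pairs were summed, so that the most read genes weigh most, the distal share was 49.0% and 55.8% in siCtrl, 49.4% and 50.8% in siPaf1, 38.1% and 43.6% in siCdc73 and 42.6% in siSki8. By this measure siPaf1 of batch 1 was not below its control.

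In the 571 pairs with both sites in 1 exon, the median distal share was 65.2% and 69.2% in siCtrl, 59.1% and 59.2% in siPaf1, 53.0% and 56.4% in siCdc73 and 57.8% in siSki8, and all knockdown medians lay below both controls. In the 283 pairs with the distal site outside the annotated exons, it was 27.9% and 29.4% in siCtrl and higher, at 35.6% and 34.8%, in siPaf1. In siCdc73 it was 27.0% and 25.7%, and in siSki8 20.5%. The long isoform past the annotated end was thus the minor one in control cells, and its median share in siPaf1 lay above both controls while that in siCdc73 and siSki8 lay below them.

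**Figure D1:**
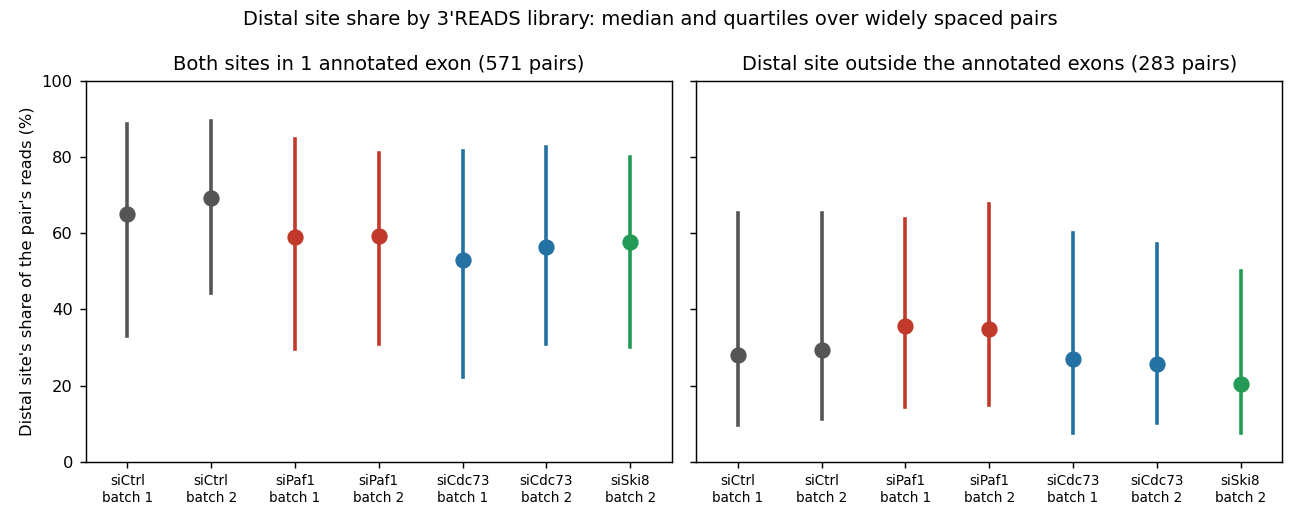
Median (points) and lower and upper quartile (lines) over wide pairs of the distal site's share of the pair's reads in percent, for each of the 7 3'READS libraries, split by site placement. In pairs within 1 exon all knockdown medians lie below both siCtrl medians of 65.2% and 69.2%, and in pairs with the distal site outside the annotated exons the siPaf1 medians of 35.6% and 34.8% lie above the siCtrl medians.

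The change of the distal to proximal ratio against siCtrl was tested over all 4567 pairs by the quasi-likelihood method of edgeR, and p-values were adjusted by Benjamini-Hochberg across them. Without a batch term, no pair passed an adjusted p of 0.05 in any knockdown (0.0% of all pairs for siPaf1, 0.0% for siCdc73 and 0.0% for siSki8). At an unadjusted p under 0.05 that fit gave 64 wide pairs with a lower and 39 with a higher ratio in siPaf1. It gave 75 and 14 in siCdc73 and 20 and 0 in siSki8. Over all 4567 pairs it gave 169 and 60, 165 and 27, and 53 and 5 in the same order. DESeq2 without the batch called 11 and 7, 5 and 0, and 0 and 0 of the wide pairs. The fit without the batch was planned as the main one, and the fit with it as an alternative. The calls and adjusted p of members given below come from this alternative unless another fit is named. The batches pair the libraries, and with the batch as a replicate block 84 wide pairs were called shortened (a lower distal to proximal ratio) and 51 lengthened in siPaf1. The corresponding counts were 75 and 13 in siCdc73, and 6 and 0 in siSki8. Over all pairs the shares called were 5.1% shortened and 1.69% lengthened in siPaf1, 3.88% and 0.416% in siCdc73, and 0.307% and 0.0% in siSki8. Of the wide pairs, 9.31% and 5.65% were called in siPaf1, 8.31% and 1.44% in siCdc73, and 0.665% and 0.0% in siSki8, which lies above the share over all pairs in each direction with any call. For siSki8 the unadjusted count of lengthened pairs without the batch was also 0, as was the count of DESeq2 with the batch.

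The median change of the log2 distal to proximal ratio over the wide pairs was -0.29 in siPaf1, -0.67 in siCdc73 and -0.76 in siSki8 with the batch in the fit. Over all pairs it was -0.30, -0.41 and -0.40. Within batches the wide pair medians were -0.09 and -0.41 in siPaf1, -0.60 and -0.67 in siCdc73 and -0.80 in siSki8. The siPaf1 distribution was broad to both sides, with quartiles of -1.31 and 0.74, against -1.45 and 0.20 in siCdc73. Since most pairs shifted one way, calls also depend on what the ratio is scaled to. Each isoform column was also scaled to the bulk of all pairs (TMM), which took out the common shift. With the batch in the fit, the 902 wide pairs then gave 47 shortened and 66 lengthened in siPaf1. They gave 36 and 16 in siCdc73, and 0 and 0 in siSki8. All 4567 pairs gave 120 and 115, 69 and 32, and 0 and 0 in the same order. The wide pair medians relative to that bulk were 0.05, -0.28 and -0.39.

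Both libraries of a knockdown lay beyond both controls in a part of the wide pairs. In siPaf1 the distal share was below both siCtrl libraries in both batches in 227 pairs (25.2%, against 22.6% of all pairs) and above them in 156 (17.3%, against 12.2%). In siCdc73 it was below in 280 (31.0%, against 24.8%) and above in 91 (10.1%, against 8.85%). The single siSki8 library lay below both controls in 466 pairs (51.7%, against 42.7% of all pairs) and above both in 128 (14.2%, against 17.8%), by a looser rule since only 1 library had to lie beyond them.

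The median change in siCdc73 was -0.29 under 500 bases, -0.47 from there to under 2000, -0.63 to under 3000 and -0.81 to under 4000, and then -0.64 to under 5000 and -0.51 at 5000 or more. In siSki8 the series was -0.20, -0.54, -0.74, -0.85, -0.84 and -0.55. In siPaf1 it was -0.24, -0.40, -0.31, -0.38, -0.13 and 0.16, so the most widely spaced pairs had a median above 0. Spearman's rho between spacing and change over all pairs was -0.05 in siPaf1, -0.13 in siCdc73 and -0.21 in siSki8. Within the wide pairs it was 0.08, -0.02 and 0.02, and in those with both sites in 1 exon it was -0.03, -0.17 and -0.04. These are descriptions across genes, which share the same libraries.

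**Figure D2:**
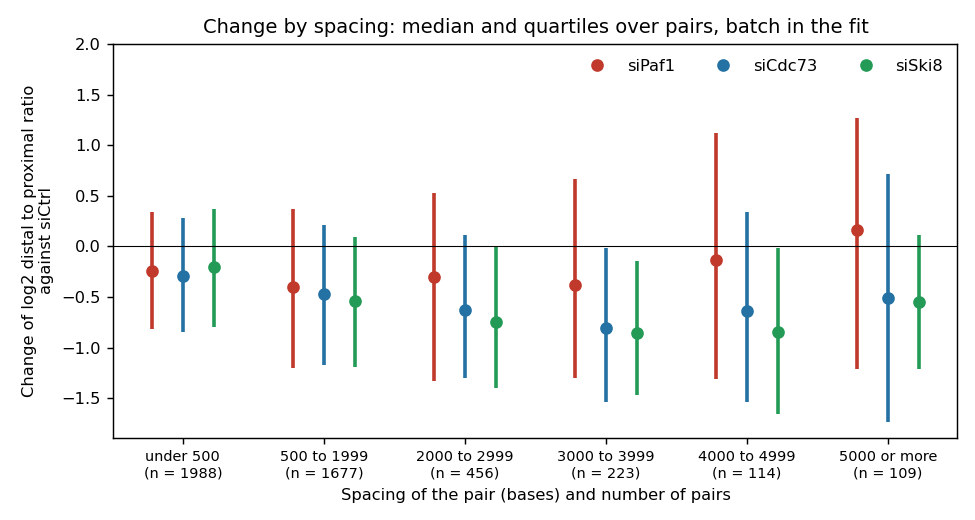
Median (points) and quartiles (lines) over pairs of the change of the log2 distal to proximal ratio against siCtrl, by spacing class in bases, with the batch in the fit. In siCdc73 and siSki8 the medians fall from -0.29 and -0.20 under 500 bases to -0.81 and -0.85 at 3000 to under 4000, and in siPaf1 the median at 5000 bases or more is 0.16.

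In siPaf1 more pairs were shortened than lengthened within 1 exon, and fewer where the distal site lay outside the annotated exons. Within 1 exon 68 of the 571 pairs were shortened and 12 lengthened, whereas 13 of the 283 pairs with the distal site outside the annotated exons were shortened and 34 lengthened, and relative to the bulk of all pairs the counts were 38 and 21, and 8 and 40. Without siPaf1 of batch 2 these counts were 16 and 1 within 1 exon and 2 and 11 outside, and without siCtrl of batch 2 they were 8 and 0, and 1 and 7. In siCdc73 the counts were 50 and 1 within 1 exon and 22 and 12 outside. Relative to the bulk of all pairs the order outside turned, with 7 shortened and 13 lengthened against 28 and 2 within 1 exon, and without siCtrl of batch 2 the counts outside were 3 and 3. In siSki8 the counts were 3 and 0 in both placements. The median changes were -0.44 and 0.25 in siPaf1, -0.81 and -0.41 in siCdc73 and -0.79 and -0.77 in siSki8. The opposite signs in siPaf1 were seen in each batch, at -0.23 and 0.21 in batch 1 and at -0.62 and 0.23 in batch 2. They remained when each of the 7 libraries was left out in turn with the batch in the fit. The pairs were not chosen anew in these fits. Both sites reached the minimum share on siCtrl reads alone in 237 of the 283 pairs, and medians over these alone were not computed. Relative to the bulk of all pairs, the siPaf1 medians were -0.10 within 1 exon and 0.59 outside. Pairs under 2000 bases with the distal site outside the annotated exons had a median of -0.24 in siPaf1, with 12 shortened and 8 lengthened of 435. The difference between placements was not tested.

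**Figure D3:**
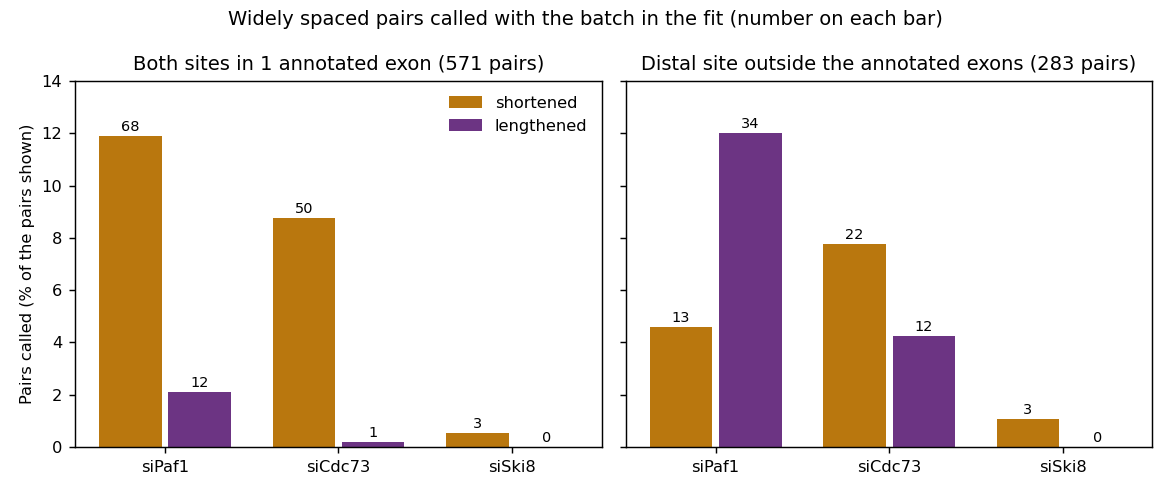
Share of wide pairs called shortened or lengthened in each knockdown, in percent of the pairs of that placement, with the number called on each bar. In siPaf1 68 pairs within 1 exon are shortened and 12 lengthened, against 13 and 34 where the distal site lies outside the annotated exons.

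The minimum share of 5% was set on reads of all libraries, so a site that is rare in siCtrl could pass through the knockdown libraries, and such a pair had to differ. On siCtrl reads alone both sites reached the minimum in 789 of the 902 wide pairs. Of the pairs shortened in siPaf1 67 of 84 were among these, and of those lengthened 34 of 51, and in siCdc73 60 of 75 and 5 of 13. All 6 siSki8 calls were among them. In siPaf1 they were 54 shortened and 10 lengthened of 512 within 1 exon, and 10 and 20 of 237 with the distal site outside the annotated exons. In siCdc73 they were 38 and 0, and 20 and 5. Of the members described further on, the proximal site was under the minimum in siCtrl in Hipk3, Trp53inp1, Zfp871, Rictor, Stxbp5, Loxl2, Tob2, Cpeb2, Rc3h1 and Nsd1, and the distal site in Eif2c2, Tgfb1i1, Tmem160, Ints1 and 2310003H01Rik. The p-values printed for these pairs are therefore a description and no support. The fit with no minimum share and with the batch still took the most read sites over all libraries. Of these pairs, it lost the calls of Hipk3 (adjusted p = 0.0855), Tob2 (0.0519) and Nsd1 (0.0549) in siCdc73. In siPaf1 it lost those of Rictor (0.0768), Stxbp5 (0.0737) and Rc3h1 (0.0559). That fit also lost calls of pairs with both sites over the minimum in siCtrl, among them all 6 siSki8 calls (0.126 to 0.151). Others described further on were Tial1 (0.108 in siPaf1 and 0.0766 in siCdc73), and Sept8 (0.0579), Ubr3 (0.109) and Arf6 (0.0893) in siPaf1. In siCdc73 Smarca4 (0.100) and Abhd6 (0.0528) were lost too.

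Leaving out 1 library with the batch in the fit moved the counts, although the pairs stayed those chosen on all libraries. For siPaf1 they were 34 shortened and 19 lengthened without siCtrl of batch 1, 9 and 7 without siCtrl of batch 2, 86 and 43 without siPaf1 of batch 1, and 19 and 13 without siPaf1 of batch 2, the library that stood apart. Of those 19 and 13 pairs, 18 and 12 were also called with all libraries. For siCdc73 they were 29 and 4, 10 and 3, 34 and 5 and 30 and 3 without siCtrl or siCdc73 of batch 1 or 2 in the same order. The 6 siSki8 calls fell to 0 without either control, and the smallest count without a siPaf1 or siCdc73 library was 6.

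Hipk3, a homeodomain-interacting protein kinase, had the largest of the falls in siPaf1 that held without any single library, among the 8 named members with the largest falls, which average at least 50 reads. Its distal site, 3377 bases after the stop codon, held 92.0% and 97.6% of the reads of the pair in siCtrl and 24.0% and 30.9% in siPaf1. In siCdc73 the share was 66.0% and 90.1% (adjusted p = 0.0318, and 0.157 relative to the bulk of all pairs), and in siSki8 81.8% (95% Wilson interval 76.4% to 86.2%, counting error only). The siPaf1 libraries lay far below all others, and the log2 ratio fell by 5.95 (SE 0.72, adjusted p = 4.66e-11 with the batch). Distal reads were 104 and 416 in siCtrl and 12 and 42 in siPaf1, while proximal reads were 9 and 10 against 38 and 94. The range of adjusted p without 1 library was 2.13e-11 to 2.26e-04. The proximal site was under the minimum share in siCtrl, so this range is a description and no support.

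Gmps encodes GMP synthetase, an enzyme of guanine nucleotide synthesis, and its proximal site lies 22 bases after the stop codon. The distal site, 5463 bases further on, held 9.9% and 21.4% of the reads in siCtrl and 0.2% and 0.7% in siPaf1, and 0.5% and 3.6% in siCdc73. In siSki8 it held 6.06% (interval 4.34% to 8.38%). Every knockdown library lay below both controls. The distal site had 51 and 95 reads in the controls, against 1 and 3 in siPaf1. The log2 ratio fell by 5.57 in siPaf1 (SE 0.71, adjusted p = 2.55e-10) and by 3.36 in siCdc73 (SE 0.59, adjusted p = 1.41e-05). The siSki8 value was -2.31 (adjusted p = 0.136).

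Trp53inp1, a target of p53 that takes part in autophagy and apoptosis, used its distal site nearly alone in control cells, at 99.0% and 96.6%. The share was 67.5% and 44.3% in siPaf1 and 73.5% and 73.4% in siCdc73. In siSki8 it was 96.4% (interval 92.4% to 98.3%), just below the lower control. The log2 ratio fell by 5.23 in siPaf1 (SE 0.59, adjusted p = 1.44e-12). In siCdc73 it fell by 4.08 (SE 0.61, adjusted p = 1.66e-07). The proximal site had 4 and 21 reads in siCtrl and 161 and 426 in siPaf1, against 413 and 593 and then 335 and 339 at the distal site. The coding region rose by 1.68 in log2 RNA-seq counts (adjusted p = 3.39e-05 with the batch).

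Ankrd57, an ankyrin repeat gene, passed the test in siPaf1 and not in the other knockdowns. The distal share was 90.0% and 94.3% in siCtrl, 33.3% and 42.8% in siPaf1, 84.8% and 85.6% in siCdc73 and 93.4% in siSki8 (interval 89.0% to 96.1%). The log2 ratio fell by 4.29 in siPaf1 (SE 0.72, adjusted p = 3.67e-06), and its value in siCdc73 was -1.09 (adjusted p = 0.511). Gmps and Ankrd57 kept an adjusted p under 0.05 in siPaf1 without any 1 of the 7 libraries. So did Hipk3 and Trp53inp1, but these passed the minimum share only through knockdown libraries, so this is a description and no support.

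Of the other members with a large fall in siPaf1, Zfp871, a zinc finger gene, used its distal site at 99.2% and 99.2% in siCtrl and at 84.0% and 75.7% in siPaf1. Rictor, a subunit of mTOR complex 2, was at 100% and 98.5% in siCtrl, 95.6% and 80.2% in siPaf1 and 96.4% and 70.5% in siCdc73. Stxbp5, which binds syntaxins, had 0 proximal reads of 24 and of 23 in siCtrl and 10 of 40 and 30 of 113 in siPaf1. These had adjusted p of 7.45e-06, 0.0287 and 0.0317 in siPaf1, and each lost the call without siCtrl of batch 2 and without siPaf1 of batch 2. Rictor and Stxbp5 also lost it relative to the bulk of all pairs (0.0754 and 0.0626), with DESeq2 and the batch (0.0792 and 0.0689) and without siCtrl of batch 1. Stxbp5 was further lost without either siCdc73 library, and with all sites of the gene split at the midpoint of the pair its log2 change was -1.23 (adjusted p = 0.531). The Rictor call in siCdc73 (adjusted p = 0.0123) was lost relative to the bulk (0.0533), without either control and without siCdc73 of batch 2.

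The 4 pairs with the largest rises in siPaf1 and the 4 in siCdc73, among those with a mean of at least 50 reads, all had the distal site past the annotated end of the gene. Of these, only Znrf2 in siPaf1 and Abhd6 in siCdc73 had both sites over the minimum share in siCtrl. The shared placement is therefore a description and no support. Tgfb1i1, a focal adhesion adaptor, had 0 distal reads of 142 in siCtrl of batch 1, which allows a share of up to 2.11%, and 2 of 336 (0.6%) in batch 2. The distal site, 3721 bases past the annotated end, held 27.4% and 14.6% of the reads in siPaf1 and 9.9% and 8.3% in siCdc73, and 0.70% in siSki8. Both siPaf1 and both siCdc73 libraries lay above all other libraries. This pair, like those of Tmem160, Ints1 and 2310003H01Rik, passed the minimum share only through knockdown libraries, so the values are a description and no test is given.

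Tmem160, which encodes a transmembrane protein, had no distal read among 105 and 157 in siCtrl, which allows up to 2.86% and 1.91%. Its distal site, 8238 bases past the annotated end and inside the opposite gene Npas1, had 14 and 59 reads (8.2% and 30.7%) in siPaf1 and 3 and 37 (4.1% and 25.7%) in siCdc73, and 1 of 73 in siSki8. Ints1, a subunit of the Integrator complex, had 0 of 490 and 7 of 328 distal reads in siCtrl, 51 of 592 and 128 of 560 in siPaf1 and 28 of 618 and 92 of 674 in siCdc73. The distal shares were 0.0% and 2.1%, 8.6% and 22.9%, and 4.5% and 13.6%, and 1.21% in siSki8. Znrf2, a ubiquitin ligase gene, switched to the distal site in siPaf1, with 32.1% and 29.4% in siCtrl against 91.3% and 95.2% (log2 ratio up by 5.11, SE 0.95, adjusted p = 3.62e-05), a call lost without siPaf1 of batch 2. In siCdc73 its share was 54.0% and 29.5%, and in siSki8 21.9%. The gene 2310003H01Rik had 0 of 52 and 2 of 69 distal reads in siCtrl and 14 of 47 and 88 of 185 in siPaf1.

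Reep3, a protein of the endoplasmic reticulum membrane, was shortened in siCdc73. The distal share was 50.5% and 80.3% in siCtrl, 41.7% and 64.4% in siPaf1, 8.9% and 8.4% in siCdc73 and 38.0% in siSki8 (interval 35.1% to 40.9%). Distal reads were 157 and 688 in siCtrl against 30 and 108 in siCdc73, with 154 and 169 proximal reads against 308 and 1174. The log2 ratio fell by 4.51 (SE 0.51, adjusted p = 1.11e-12), and the siPaf1 value was -0.85 (adjusted p = 0.347). Without any 1 library the adjusted p in siCdc73 stayed between 1.21e-17 and 4.14e-04.

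Loxl2, an enzyme that crosslinks collagen, went from 23 of 23 and 706 of 747 distal reads in siCtrl to 0 of 3 and 53 of 106 in siCdc73. Its share was 80.0% and 87.3% in siPaf1 and 79.4% in siSki8. The log2 ratio fell by 4.63 in siCdc73 (SE 0.83, adjusted p = 1.92e-05), and the coding region fell by 2.63 in log2 RNA-seq counts (adjusted p = 3.72e-08). The 3 reads of siCdc73 in batch 1 carry little weight, and the call held without that library. The Loxl2 proximal site was under the minimum share in siCtrl, so its call is a description and no support. Lpgat1, an acyltransferase of lipid synthesis, had 10 of 177 and 41 of 231 distal reads in siCtrl and 0 of 157 and 7 of 570 in siCdc73. Its shares in siPaf1 were 11.8% and 24.3%, against 5.6% and 17.8% in siCtrl and 0.0% and 1.2% in siCdc73 (adjusted p = 8.53e-05 in siCdc73), and the call was lost without siCtrl or siCdc73 of batch 2.

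Each of the other members with large falls in siCdc73 lost the call without siCtrl of batch 2 and without siCdc73 of batch 2, and all of Zbtb10, Lifr, Efna5 and Tob2 also without siCdc73 of batch 1. Zbtb10, Efna5 and Tob2 further lost it without siCtrl of batch 1. Zbtb10 had 8 of 59 and 20 of 124 distal reads in siCtrl and 0 of 17 and 0 of 139 in siCdc73 (adjusted p = 0.00831). Lifr, the receptor of leukemia inhibitory factor, had distal shares of 22.2% and 78.3% in siCtrl and 0.0% and 5.9% in siCdc73 (adjusted p = 0.00699). For Efna5, an ephrin ligand, they were 35.1% and 72.5% against 0.0% and 17.1% (adjusted p = 0.00318). Tob2, an antiproliferative protein that recruits deadenylases, was at 88.9% and 100% in siCtrl, at 39.6% and 46.8% in siCdc73 and at 95.6% in siSki8 (adjusted p = 0.0205 in siCdc73). The Tob2 call was lost relative to the bulk of all pairs (0.0654), with DESeq2 and the batch (0.0982) and with sites split at the midpoint (0.0526), and that of Zbtb10 by the latter pair of alternatives (0.0600 and 0.0570). The Tob2 coding region rose by 2.30 in log2 RNA-seq counts in siCdc73 (adjusted p = 2.27e-07), and the proximal site had 1 and 0 reads in siCtrl and 32 and 107 in siCdc73. Abhd6, a lipid hydrolase, was lengthened, from 19.4% and 5.9% in siCtrl to 94.1% and 44.4% in siCdc73 (adjusted p = 0.0234). The 94.1% rests on 17 reads, and the call was lost without any 1 library of siCtrl or siCdc73, with DESeq2 and the batch (0.0686) and with the midpoint split (0.187).

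In siSki8 the 6 called pairs were all shortened. Pafah1b1, a regulator of dynein also known as LIS1, was at 63.7% and 83.3% in siCtrl, 31.8% and 63.1% in siPaf1, 30.6% and 38.6% in siCdc73 and 49.3% in siSki8 (interval 46.7% to 51.9%). All 3 knockdowns were called, with adjusted p of 0.00824, 3.27e-05 and 0.0464. The siPaf1 call was lost relative to the bulk of all pairs (0.0562), with sites split at the midpoint (0.125), without either control and without siPaf1 of batch 1, and the siCdc73 call without siCtrl or siCdc73 of batch 2.

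St13, a cochaperone of Hsp70, was at 81.3% and 89.1% in siCtrl, at 87.5% and 89.4% in siPaf1, at 57.5% and 67.9% in siCdc73 and at 66.2% in siSki8 (interval 64.1% to 68.1%). The siCdc73 and siSki8 libraries lay below all others (log2 ratio down by 1.82, adjusted p = 3.04e-04, and by 1.91, adjusted p = 0.0450), and the siPaf1 value was 0.36 (adjusted p = 0.677). The siCdc73 call was lost without siCtrl of batch 2. Txnl1, a thioredoxin-like protein, was at 23.8% and 22.7% in siCtrl and at 4.99% in siSki8 (interval 4.36% to 5.71%). Brd3, a bromodomain protein, was at 5.4% and 18.2% in siCtrl and at 4.34% in siSki8 (interval 3.38% to 5.54%), with 2.2% and 10.6% in siCdc73. Lmf1, a lipase maturation factor, had 0 distal reads of 72 in siSki8, which allows up to 4.17%, against 26 of 256 and 42 of 142 in siCtrl. The adjusted p was 0.0450 for each of these 3, and all 6 calls were lost without either control library and with the ratio scaled to the bulk of all pairs (adjusted p 0.284 to 0.334). None of the calls named here held with all sites split at the midpoint, and with DESeq2 and the batch those of Lmf1 (0.308) and Pafah1b1 (0.0824) were lost. Those of St13 and Brd3 were also lost without either siCdc73 library, and that of Lmf1 without siPaf1 of batch 1.

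**Figure D4:**
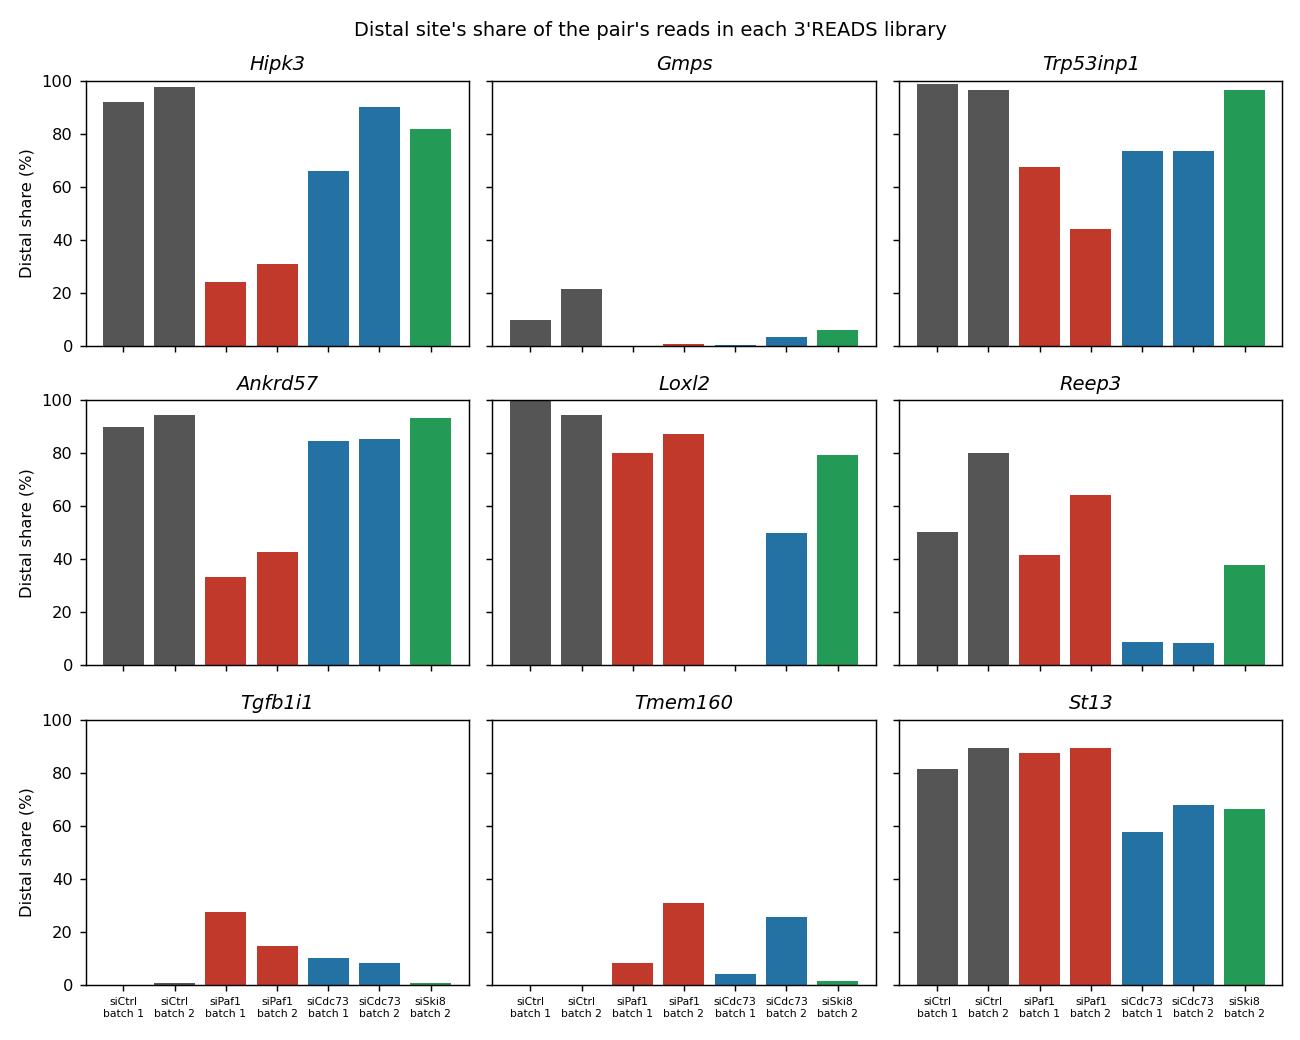
Bars give the distal site's share of the pair's reads in percent for 9 members in each of the 7 3'READS libraries, coloured by siRNA. Hipk3 and Ankrd57 are low in the siPaf1 libraries (24.0% to 42.8%), Reep3 in the siCdc73 libraries (8.9% and 8.4%), and Tgfb1i1 and Tmem160 are at or near 0 in siCtrl.

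Each site of the called pairs was also compared on its own, with no test. Among the 84 pairs shortened in siPaf1, the reads at the proximal site, per total PASS reads, were higher than in the control of the same batch in both batches in 70 pairs and lower in 3, and those at the distal site were lower in 60 and higher in 6. The median log2 change was 1.42 at the proximal and -0.84 at the distal site. In the 75 pairs shortened in siCdc73, the proximal site was higher in 59 and the distal lower in 68, with medians of 1.04 and -1.13. In the 51 pairs lengthened in siPaf1 the distal site was higher in 42 (median 1.65) and the proximal lower in 30 (median -0.54). The median distal share in siCtrl was 75.9% in the pairs shortened in siPaf1 and 72.8% in those shortened in siCdc73, and 14.2% and 5.89% in the lengthened pairs. The calls were made on the same libraries, so the values in this group of pairs describe the calls and do not support them.

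The knockdowns of Paf1 and of Cdc73 were also compared with each other, in the same fit with the batch, a comparison added after the data were seen. Of the wide pairs, 39 had a higher distal to proximal ratio in siPaf1 than in siCdc73 and 8 a lower one, against 1.51% and 0.569% of all pairs. The median difference (siPaf1 minus siCdc73) was 0.34, with 0.49 in batch 1 and 0.26 in batch 2. Of the 39, 19 lay within 1 exon and 19 had the distal site outside the annotated exons, and of the 8 lower ones 7 lay within 1 exon. Without siPaf1 of batch 2 the counts were 13 and 1, of which 12 and 1 were also called with all libraries. They were 6 and 0 without siCdc73 of batch 2, 24 and 9 without siCdc73 of batch 1, 37 and 17 without siPaf1 of batch 1, and 26 and 6, and 25 and 6 without siCtrl of batch 1 or 2. Without the batch none passed (0), and 57 had an unadjusted p under 0.05, against 122 of all 4567 pairs. Hipk3 (difference -3.63, SE 0.68, adjusted p = 1.21e-04) and Ankrd57 (-3.19, SE 0.64, adjusted p = 3.81e-04) were shorter in siPaf1. The Hipk3 pair passed the minimum share only through knockdown libraries, so its values here are a description and no support. Reep3 (3.66, SE 0.50, adjusted p = 7.61e-09), Lpgat1 (5.00, SE 0.77, adjusted p = 7.41e-07) and St13 (2.18, SE 0.37, adjusted p = 1.39e-05) had a higher distal to proximal ratio in siPaf1 than in siCdc73, as did Znrf2 (4.55, SE 0.94, adjusted p = 5.87e-04), whose distal share rose in siPaf1. Of these 6 genes, Reep3 and St13 held without any single library. Hipk3 and Znrf2 were lost without siPaf1 of batch 2 (adjusted p of 0.243 and 0.344), and Hipk3, Ankrd57, Lpgat1 and Znrf2 without siCdc73 of batch 2 (0.267, 0.138, 0.0587 and 0.415). The count of 39 holds Sco2 and Tymp, which share their sites (difference 3.70, adjusted p = 6.02e-10).

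RNA-seq over the coding region gave the expression of 431 wide pair genes, a readout the choice of pairs did not use. Without the batch no wide pair gene passed in edgeR (0 in each knockdown), at an unadjusted p under 0.05 there were 70 in siPaf1, 83 in siCdc73 and 20 in siSki8, and DESeq2 called 21, 31 and 0. With the batch, 65 were higher and 88 lower in siPaf1, against 16.3% and 16.2% of the 6521 genes tested. In siCdc73 70 were higher and 100 lower, against 19.4% and 20.5%, and in siSki8 13 and 8, against 2.93% and 2.5%. Without siCtrl of batch 2 the siPaf1 counts were 25 and 41 and the siCdc73 counts 28 and 61, and without siPaf1 of batch 2 the siPaf1 counts were 47 and 84. The siCdc73 counts were 23 and 46 without siCdc73 of batch 2, and the siSki8 counts ranged from 4 and 3 without siCtrl of batch 1 to 52 and 19 without siPaf1 of batch 2. The medians with the batch were -0.03, -0.07 and 0.15, against 0.02, -0.02 and 0.02 over all genes. The sign in siSki8 depends on the fit, since its median was -0.08 without the batch and -0.10 with RLE size factors or with DESeq2. Of the 84 pairs shortened in siPaf1, 47 were tested in RNA-seq, of which 17 were higher and 9 lower. Of the 75 shortened in siCdc73 46 were tested, with 11 higher and 7 lower. Of the 51 lengthened in siPaf1 27 were tested, with 1 higher and 5 lower. Across the 431 genes, Pearson's r between the RNA-seq change and the change of the distal to proximal ratio was -0.04 in siPaf1, -0.08 in siCdc73 and -0.06 in siSki8. These values share libraries of the same knockdown, and genes are not independent replicates.

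Gene lists describe which functions the wide pairs hold. Over all site pairs, 902 of 4567 (19.8%) were wide, and of the wide pairs 9.31% were shortened and 5.65% lengthened in siPaf1, 8.31% and 1.44% in siCdc73 and 0.665% and 0.0% in siSki8. Among kinases and phosphatases of signalling, 17 of 54 genes with any site pair had a wide pair, and Prkaa1, Dyrk2 and Hipk3 were shortened in siPaf1 and Dyrk2 and Hipk3 in siCdc73, with none lengthened. The distal share of Dyrk2, a kinase of the DYRK family, was 39.3% and 57.3% in siCtrl, 4.0% and 6.8% in siPaf1 and 6.2% and 22.8% in siCdc73, with 36.9% in siSki8 (adjusted p = 3.67e-06 in siPaf1 and 0.00993 in siCdc73). The list medians were -1.40, -1.09 and -0.93 in siPaf1, siCdc73 and siSki8, against -0.29, -0.67 and -0.76 over the wide pairs and -0.30, -0.41 and -0.40 over all pairs. Medians of further lists lay on both sides of those of the wide pairs. In the same order they were -0.15, -0.94 and -1.05 for ubiquitin ligases and deubiquitinases and -0.16, -0.60 and -1.1 for membrane traffic. For small GTPases they were -1.27, -0.22 and -0.39, and for RNA silencing and mRNA decay -0.50, -0.60 and 0.28. Of the 21 calls of list members in all lists, those of Hipk3 and Dyrk2 in siPaf1 (2) held without any single library and under each scaling, DESeq2 and the midpoint split, with the batch in each fit. The other 19 were lost without at least 1 library, and 12 of the 21 relative to the bulk of all pairs, among them Hipk3 and Dyrk2 in siCdc73. The Hipk3 call in siPaf1 is a description and no support, since its proximal site was under the minimum share in siCtrl.

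Among RNA-binding regulators of 3'UTRs, 8 of 27 genes had a wide pair, with 2 shortened in siPaf1, 2 in siCdc73 and 0 in siSki8, and medians of -1.29, -2.51 and -1.34, against -0.29, -0.67 and -0.76 over the wide pairs and -0.30, -0.41 and -0.40 over all pairs. Of all pairs 19.8% are wide, and 9.31%, 8.31% and 0.665% of the wide pairs are shortened. Elavl1 encodes HuR, which binds AU-rich elements. Its distal share was 13.5% and 13.8% in siCtrl, 12.2% and 13.9% in siPaf1, 0.3% and 4.2% in siCdc73 and 8.09% in siSki8 (log2 ratio down by 2.71 in siCdc73, SE 0.51, adjusted p = 5.64e-05), a call lost without siCdc73 of batch 1. Tial1, an AU-rich element binding protein and one of the 5 most read pairs, was at 36.9% and 50.3% in siCtrl, 27.7% and 25.0% in siPaf1, 27.4% and 22.4% in siCdc73 and 21.6% in siSki8. All knockdown libraries of Tial1 lay below both controls (adjusted p = 0.0498 in siPaf1, 0.0351 in siCdc73 and 0.190 in siSki8), but its calls were lost relative to the bulk of all pairs (0.237 and 0.271), with DESeq2 and the batch (0.0963 and 0.0648) and without any 1 library of siCtrl or siCdc73. The Cpeb2 call in siPaf1 rests on 113 proximal reads in batch 2, while siPaf1 of batch 1 had 1 read and the controls had 0 and 4, all distal.

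Among genes of RNA silencing and mRNA decay, 9 of 24 had a wide pair, with Tnrc6c and Rc3h1 shortened and Eif2c2 lengthened in siPaf1 and Tob2 shortened in siCdc73. Eif2c2 encodes Argonaute 2. Its proximal site had 4744 and 4814 reads in siCtrl and 1180 and 1541 in siPaf1. The distal share was 1.9% and 5.1% against 7.5% and 23.1% (log2 ratio up by 2.30). This distal site passed the minimum share only through knockdown libraries. The call, lost without siCtrl of batch 2, is therefore a description and no support. In siCdc73 the distal share was 3.4% and 14.6%, and in siSki8 8.02%. Of ubiquitin ligases and deubiquitinases 13 of 49 had a wide pair, with Ubr3 shortened in siPaf1 and Smurf1 in siCdc73. Smurf1, a ligase that acts on SMAD proteins, was at 84.4% and 92.5% in siCtrl, 76.3% and 72.2% in siPaf1, 36.5% and 47.9% in siCdc73 and 78.1% in siSki8 (adjusted p = 1.48e-05 in siCdc73), a call lost without siCtrl of batch 2. The calls of Rc3h1, Tob2 and Ubr3 were lost relative to the bulk of all pairs.

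The small GTPase list had 8 of 42, with Rab10 and Arf6 shortened in siPaf1 and none in siCdc73. Rab10, a GTPase of membrane transport, was at 18.1% and 61.4% in siCtrl, 7.5% and 9.0% in siPaf1 and 11.6% and 40.7% in siCdc73 (adjusted p = 1.95e-05 in siPaf1), a call lost without siCtrl or siPaf1 of batch 2. Of the chromatin regulators 10 of 43 had a wide pair, with Smarca4 and Nsd1 shortened in siCdc73 and Brd3 in siSki8. The calls of Arf6, Smarca4, Nsd1 and Brd3 were lost relative to the bulk. Of 11 wide pairs in membrane traffic, Eps15 was shortened in siCdc73, from 92.7% and 70.0% in siCtrl to 74.6% and 44.2% (adjusted p = 0.0117, and 0.107 relative to the bulk of all pairs), and no other member was called in any knockdown. None of the wide pairs of BMP, TGF-beta and Wnt signalling (7), myogenic regulators and growth factor receptors (7), adhesion, matrix and cytoskeleton (2) and cleavage and polyadenylation factors (3) was called in any knockdown. The lists of myoblast, myotube, and osteoblast and adipocyte markers and of the Paf1 complex and elongation factors had no wide pair. The cleavage factors with wide pairs were Cpsf2, Cstf2 and Papolg.

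Of the genes whose isoforms the study assayed by PCR, 5 had a wide pair, and none passed the test in any knockdown. The PCR of the study compared full-length with total transcripts, and its panel included negative control genes. It therefore need not measure the choice between the sites of a wide pair, and the values here do not test its results. Ddx46, an RNA helicase of splicing, was at 70.8% and 84.8% in siCtrl, 83.8% and 90.1% in siPaf1, 60.8% and 66.0% in siCdc73 and 54.8% in siSki8. Its values of the log2 change were 0.89, -1.10 and -2.00, with adjusted p of 0.315, 0.221 and 0.144. The ratio differed between siPaf1 and siCdc73 directly (difference 2.00, SE 0.48, adjusted p = 0.00496), a difference lost without siPaf1 or siCdc73 of batch 2 (0.129 and 0.341). Tomm20, a receptor of mitochondrial protein import, was at 47.1% and 50.0% in siCtrl, 62.6% and 66.0% in siPaf1, 31.7% and 41.7% in siCdc73 and 17.8% in siSki8 (changes of 0.93, -0.69 and -2.28, adjusted p of 0.511, 0.703 and 0.390). Pdcd6ip was at 41.8% and 57.5% in siCtrl, 47.1% and 54.1% in siPaf1, 14.7% and 41.0% in siCdc73 and 33.3% in siSki8. B3galtl was at 26.1% and 47.7% in siCtrl, 57.0% and 50.0% in siPaf1, 30.2% and 54.6% in siCdc73 and 19.0% in siSki8. These genes were chosen by the study on these samples.

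Some wide pairs differed between batches, of which siSki8 has only the second. The 3 libraries of batch 1 all lay below the 4 libraries of batch 2 in 102 wide pairs (11.3%, against 13.8% of all pairs) and above them in 105 (11.6%, against 13.7%). Irs1, the insulin receptor substrate, had distal shares of 33.0% in siCtrl, 4.0% in siPaf1 and 23.1% in siCdc73 of batch 1, and 94.3%, 94.2%, 89.8% and 88.1% in siCtrl, siPaf1, siCdc73 and siSki8 of batch 2. Cstf2, a subunit of the cleavage stimulation factor, went the other way, with 84.2%, 80.3% and 72.2% in batch 1 and 36.8%, 26.2%, 27.2% and 27.1% in batch 2. In both genes the spread between batches was larger than that between siRNAs. What differed between batches is not given in the labels.

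Timp2, Tial1, St13 and Sept8 were among the 5 most read wide pairs. Timp2, an inhibitor of metalloproteinases, was at 31.6% and 54.8% in siCtrl, 39.1% and 44.0% in siPaf1, 38.0% in siSki8, 43.3% in siCdc73 of batch 2 and lowest in siCdc73 of batch 1 (1035 distal against 3898 proximal reads), and passed in no knockdown (adjusted p of 0.952, 0.340 and 0.723). Sept8, a septin of the cytoskeleton, was at 91.5% and 89.4% in siCtrl and at 94.2% and 97.2% in siPaf1 (log2 ratio up by 1.32, SE 0.40, adjusted p = 0.0242), a call lost without either control, without siPaf1 of batch 2 and with DESeq2 and the batch (0.0505). In siCdc73 it was at 84.6% and 85.5% and in siSki8 at 77.5% (adjusted p of 0.376 and 0.190). The 5 widest pairs, of Nsd1, Dlgap1, 1810048J11Rik, Cdc42se2 and 4930503L19Rik, spanned 104260, 101178, 38256, 20989 and 15953 bases. Of them Nsd1 passed in siCdc73 and the others in no knockdown, with 12 of 13 and 24 of 28 distal reads in siCtrl against 0 of 11 and 15 of 55 in siCdc73 (adjusted p = 0.0308, and 0.0848 relative to the bulk of all pairs). Its sites lie in different exons, so this pair is not a choice within 1 stretch of 3'UTR.

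The sequence lost with the long isoform was searched in the 571 segments that lie between both sites in 1 exon, 1790 kilobases in all. The letters TGTANATA, the core bound by Pumilio proteins, occurred in 275 segments (48.2%) on the transcript strand and in 181 (31.7%) on the other strand of the same segments, at 0.242 and 0.135 per kilobase. The letters ATTTA, the core of AU-rich elements, occurred in 547 and 546. Seed matches were searched for 4 miRNAs of muscle and other tissues, whose mature sequences (RefSeq, GRCm38.p6) are shown with bases 2 to 8 in capitals since the search used these.
mmu-let-7a-5p: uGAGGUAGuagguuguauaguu
mmu-miR-206-3p: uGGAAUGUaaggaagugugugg
mmu-miR-29a-3p: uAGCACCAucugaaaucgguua
mmu-miR-30a-5p: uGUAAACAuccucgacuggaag
The complement of the seed of miR-29a occurred in 175 segments (30.6%) against 120 on the other strand, and that of miR-30a in 166 (29.1%) against 116. That of let-7a occurred in 104 (18.2%) against 95, and that of miR-206 in 111 (19.4%) against 146. In the 68 segments of pairs shortened in siPaf1, TGTANATA was found in 42 (61.8%), and in the 50 of pairs shortened in siCdc73 in 29 (58.0%), against 46.0% and 47.1% of the segments of pairs not called. It was found in 7 of the 12 segments (58.3%) of pairs lengthened in siPaf1, a share near that of the shortened pairs. For miR-30a the shares were 45.6% and 46.0% against 27.3% and 27.3%, for miR-206 27.9% and 28.0% against 18.3% and 18.7%, and for miR-29a 33.8% and 44.0% against 30.3% and 29.4%. Those of let-7a were lower in the shortened pairs, at 13.2% and 16.0% against 19.3% and 18.5%. The letters ATTTA were in 100.0% of both groups of shortened pairs, against 95.3% and 95.4%. The median segment was 2760 and 3212 bases long in the shortened pairs, against 2795 and 2765, and no share was tested. Both groups of shortened pairs have members in common and were called against the same siCtrl libraries, so their shares are not independent. These are letters in a sequence and not sites shown to be bound, and the miRNAs were not measured here.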

How the data were processed

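3'READS and RNA-seq libraries of siRNA-treated C2C12 cells (4 groups, 7 libraries per assay) were grouped by the labels. The authors aligned both assays to mm9 (Bowtie2, local alignment), retained reads that mapped once with a quality above 10 and, for 3'READS, with at least 2 non-genomic Ts, and deposited read counts per poly(A) site and per transcript (coding region) without normalization. Beside these counts the authors deposited RPKM values, used here only for marker levels. Tool versions are not given in the sources used here. Per-sample columns left unmatched numbered 0. RNA-seq totals ran from 2796693 to 8160386 counts and 3'READS totals from 5302728 to 14340927 PASS reads. ChIP-seq samples of the series were not analysed here. Nothing in the labels says that libraries came from separate cultures, so p-values measure only the spread between these libraries.

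Pairs were tested in R 4.3.3 with edgeR 4.0.16 (quasi-likelihood, isoform by knockdown, 1 coefficient per library, both isoforms scaled to the library's pair total) and, as an alternative, DESeq2 1.42.0. RNA-seq used TMM, edgeR's filter on low counts and the transcript with the highest mean count per gene. Single-library ratios had 0.5 reads added before log2. Python 3.11.15, pandas 2.3.3, numpy 2.4.6, pysam 0.24.0 and matplotlib 3.10.9 were used for tables, sequence and figures, and sites were placed in GENCODE M1 allowing 50 bases past an exon. Signals were searched in the 40 bases before a site, AATAAA first, then ATTAAA, then 10 variants. The tests were checked on simulated data for siPaf1 against siCtrl with a batch shift: of 200 pairs changed 8-fold among 4567, 168 were recovered with the batch in the fit and 0 without it (3 and 0 others called), and of 200 genes changed 4-fold among 6521 in RNA-seq, 182 and 0 (10 and 0 others). The shift was put into every pair and gene. For pairs, the simulated spread was lower than that estimated here with the batch in the fit. The recovery describes the fits under these settings and does not support the calls made here.

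The labels give a replicate number that is the batch, so libraries pair by batch: the batch differences of the log2 ratio correlated over wide pairs between siCtrl and siPaf1 (r = 0.481), siCtrl and siCdc73 (0.530) and siPaf1 and siCdc73 (0.428). The members, gene lists and tests were chosen with earlier results of these data known. Placement classes and the comparison of siPaf1 with siCdc73 were added after the data were seen. Named members are, per knockdown, the 8 largest falls and 4 largest rises (siSki8: 6 and 4) among wide pairs with an adjusted p under 0.05 with the batch, the same direction in every batch and a mean of at least 50 reads, the 5 most read and 5 widest pairs, pairs of the PCR-assayed genes and cleavage factors, and per list the member with the smallest p in each knockdown. Of the last, those not called are given as counts. Sequences of members on chromosome 18 are not shown. Some members that this rule names are not reported here. Alternatives are described in the closing section. Wilson's method gave the 95% intervals, which reflect counting error alone, and a count of 0 allows a share of up to 3 reads of the total.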

Additional observations from a re-analysis of the deposited data

How the results depend on the processing

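Counts of wide pairs called shortened and lengthened were 0 and 0 for each knockdown without the batch, also without any 1 library, under every filter and spacing tried and with TMM per isoform column (chosen after seeing the data). With the replicate block they were 84 and 51 (siPaf1), 75 and 13 (siCdc73) and 6 and 0 (siSki8). DESeq2 without the batch gave 11 and 7, 5 and 0, and 0 and 0, and Fisher's exact test on reads summed per group, blind to the spread between libraries, 329 and 210, 383 and 107, and 334 and 50. With the replicate block, DESeq2 gave 51 and 30 for siPaf1 and 3 shortened for siSki8. TMM per isoform column gave 47, 36 and 0 shortened. A spacing of 1000 bases or more gave 150, 122 and 11, and one of 3000 bases or more 36 and 44 shortened in siPaf1 and siCdc73, over more or fewer pairs. Pairs within 1 exon (chosen after seeing the data) gave 12 and 1 lengthened in siPaf1 and siCdc73 and 3 shortened in siSki8, over fewer pairs. The siSki8 count was 0 with at least 50 reads per library, 2 with no minimum share and 0 with all sites split at the midpoint, and the cause was not tested. Without 1 library, with the replicate block, the counts ranged from 9 to 86 and 7 to 52 (siPaf1), 10 to 94 and 3 to 16 (siCdc73) and 0 to 9 and 0 to 0 (siSki8).

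The median change over wide pairs without the batch (-0.26, -0.65 and -0.65) became 0.0667, -0.26 and -0.32 with TMM per isoform column, which takes out the shift common to all pairs, and ranged from -0.39 to -0.12, -0.81 to -0.52 and -0.82 to -0.53 without 1 library. It kept its sign under the other alternatives. The distal share over summed reads was 49.0% and 55.8% in siCtrl, 38.1% and 43.6% in siCdc73 and 42.6% in siSki8. RNA-seq calls among wide pair genes (0 without the batch) were 65 higher and 88 lower (siPaf1), 70 and 100 (siCdc73) and 13 and 8 (siSki8) with the replicate block, 9 and 12, 8 and 23, and 0 and 0 with DESeq2, and, with no count filter, 3 lower in siPaf1 and 2 higher and 6 lower in siCdc73. With the replicate block and without 1 library (chosen after seeing the data), they ranged from 25 to 82 and 41 to 84, 23 to 90 and 46 to 125, and 4 to 52 and 3 to 19. The median RNA-seq change in siSki8 was 0.15 with the replicate block and -0.08 without it. The wide pairs with a higher or lower ratio in siPaf1 than in siCdc73 (39 and 8) became 0 and 0 with no replicate block, and ranged from 6 to 37 and 0 to 17 without 1 library. Depth bounds the precision of single shares, since the median wide pair had 45.0 reads in siCdc73 of batch 1.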
